A study of Homo sapiens with 10 samples.

Results

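The BTG and TOB genes form a family of antiproliferative proteins, and 5 of them, BTG1, BTG2, BTG3, TOB1 and TOB2, were followed here across the 4 groups of an RNA sequencing experiment. They were picked by symbol, with no threshold on their values but with earlier results of these data known. They are 5 of the 25593 gene entries in each deposited table. The cells came from U2OS, a human osteosarcoma line. SET, the siRNA target, is a histone chaperone and phosphatase inhibitor that binds p53. A line with the label p53 KO gave 2 libraries with SET siRNA and 2 with control siRNA, and a line with the label p53 WT gave 3 with SET siRNA and 3 with control siRNA. All 10 libraries came from cells that carried a CRISPR/Cas9 construct and received an siRNA for 96 h. Per the series' design text, each label is 1 selected line. Differences between clones therefore cannot be told apart from the p53 label. That text also names SET as the CRISPR target while describing a p53 knockout. The groups were taken from the sample labels, and the lines are called KO-labelled and WT-labelled. The labels number biological replicates but do not describe separate cultures, and p-values cover no more than the spread among these libraries.

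BTG and TOB proteins share an amino-terminal domain that binds the CNOT7 and CNOT8 deadenylases of the CCR4-NOT complex, the main enzyme for shortening poly(A) tails. The TOB proteins also bind poly(A)-binding protein, so they can bring deadenylase to a messenger RNA. Overexpressed members slow or stop entry into S phase in many cell types. BTG2 is a long-known transcriptional target of p53, and BTG1 is linked to quiescence and to FOXO factors. BTG3 has been described as binding E2F1 and CHEK1, and TOB1 as a modulator of SMAD signalling.

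The sequences around the annotated start sites are shown for BTG2 and BTG1, which had the largest rises with SET siRNA in WT-labelled cells, and for TOB2, which fell. They are RefSeq windows of 250 bases before and 50 bases from the start, on GRCh38.p14, read 5′ to 3′ on the gene's own strand. BTG2 lies on the plus strand at chr1:203305269-203305568, BTG1 on the minus strand at chr12:92145797-92146096 and TOB2 on the minus strand at chr22:41446752-41447051. Capitals mark motif matches on either strand. The first motif was CCAAT. Another was TGACG, known from cyclic AMP response elements, and the last was TATAAA, a common core promoter element.
BTG2: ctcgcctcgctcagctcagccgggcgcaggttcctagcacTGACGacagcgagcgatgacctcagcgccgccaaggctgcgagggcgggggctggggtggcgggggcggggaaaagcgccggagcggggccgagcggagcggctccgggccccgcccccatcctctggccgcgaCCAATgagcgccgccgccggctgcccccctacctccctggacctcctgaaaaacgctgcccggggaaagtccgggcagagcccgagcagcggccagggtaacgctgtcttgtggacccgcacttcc
BTG1: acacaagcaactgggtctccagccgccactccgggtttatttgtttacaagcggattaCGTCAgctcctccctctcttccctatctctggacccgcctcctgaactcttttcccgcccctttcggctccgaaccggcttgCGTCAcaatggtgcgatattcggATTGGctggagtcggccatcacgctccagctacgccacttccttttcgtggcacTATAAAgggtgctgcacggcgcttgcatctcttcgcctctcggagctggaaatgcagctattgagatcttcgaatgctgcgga
TOB2: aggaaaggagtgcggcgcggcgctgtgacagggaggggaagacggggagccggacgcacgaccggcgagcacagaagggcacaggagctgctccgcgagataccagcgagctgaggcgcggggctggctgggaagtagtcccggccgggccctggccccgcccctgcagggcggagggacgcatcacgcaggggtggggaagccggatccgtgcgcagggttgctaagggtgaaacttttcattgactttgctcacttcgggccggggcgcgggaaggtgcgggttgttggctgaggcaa
The BTG2 window held 1 CCAAT match, first base at -76 counted from the start site, and 1 TGACG match at -210. The BTG1 window held 1 CCAAT match at -87, 2 TGACG matches at -192 and -110, and 1 TATAAA match at -33. None of these letters was found in the windows of TOB2 and BTG3, and of the 2 windows listed for TOB1 1 held a CCAAT and a TGACG match. No matches overlapped. Of 35116 RefSeq windows of this length 34.6% held CCAAT, 24.6% TGACG and 11.5% TATAAA. A p53 response element was searched as a pair of 10-base units with a spacer of up to 13 bases. At most 3 mismatches over both units were allowed, and none at the core C and G of either unit. Such a pair was found in 12.8% of all windows and in none of the 6 windows of the family. Pairs with a changed core or more mismatches were not searched. This says only that the letters are not in these windows.

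The authors' values are FPKM, fragments scaled to transcript length and to the library's mapped fragments. Depth was not stated. The authors' confidence intervals imply 14288107 to 21774804 fragments per library, and 13804 to 14153 genes reached FPKM 1. SET was at 14.9 and 14.9 FPKM in KO-labelled cells with SET siRNA and 158 and 170 with control siRNA, and at 12.3, 13.3 and 12.0 against 121, 125 and 126 in WT-labelled cells. CDKN1A, the p53-induced cell cycle inhibitor p21, averaged 19.4 ± 0.111 FPKM with SET siRNA and 6.67 ± 0.231 with control siRNA in KO-labelled cells (SD, n = 2 each). It averaged 720.3 ± 21.2 FPKM with SET siRNA and 162 ± 8.42 with control siRNA in WT-labelled cells (n = 3 each). CDKN1A thus rose with SET siRNA in both lines, 2.90-fold in KO-labelled (adjusted p = 1.91e-06) and 4.45-fold in WT-labelled cells (adjusted p = 1.87e-08). Of 6 mesenchymal and osteoblast markers 5 reached FPKM 1, all but COL1A2. The 6 summed to 1469 to 1604 FPKM with SET siRNA and 1965 to 2081 with control siRNA in KO-labelled cells, and to 1188 to 1305 and 1880 to 1927 in WT-labelled cells. Of 3 epithelial markers 2 reached FPKM 1, EPCAM in both lines and CDH1 only in WT-labelled cells. In KO-labelled cells CDH1 was at 0.386 to 0.616 FPKM. The 3 summed to 4.45 to 4.95 with SET siRNA and 2.03 to 2.25 with control siRNA in KO-labelled cells. In WT-labelled cells they summed to 4.61 to 6.47 with SET siRNA and 2.69 to 2.87 with control siRNA. Both lists thus moved with SET siRNA in each line, and their part in the siRNA results was not tested. None of the 3 blood or 3 endothelial markers reached FPKM 1, with sums of at most 0.492, and HBB was listed at 0 throughout. The endothelial sum was lower with SET siRNA in KO-labelled cells, at 0.315 to 0.347 against 0.477 to 0.492 with control siRNA. In WT-labelled cells its ranges overlapped. The KO-labelled control pair differed more from each other than other pairs, with a chi-square per degree of freedom of 8.97 over implied fragments against 2.14 to 3.70.

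All 5 genes had a clean status and at least 4.29 FPKM in every library, so each was tested with or without the filter on low values. The authors' interval bounds lay 3.30 to 14.2% from the BTG2 values and 4.06 to 5.63% from the BTG3 values. FPKM is per length, so levels can be set side by side. BTG3 was the highest member in every group, at 57.1 to 114 FPKM, and made up 46.1 to 67.4% of the summed FPKM of the 5 genes. BTG1 was the lowest in WT-labelled cells, at 4.55 to 10.1 FPKM, while BTG2 was the lowest in KO-labelled cells, at 4.29 to 5.40. The sum over the family was 122 ± 2.17 FPKM in KO-labelled cells with SET siRNA and 111 ± 4.92 with control siRNA (n = 2 each). In WT-labelled cells it was 237 ± 9.40 with SET siRNA and 139 ± 3.64 with control siRNA (n = 3 each). BTG2 supplied 3.86 ± 0.560% of that sum in KO-labelled cells with SET siRNA and 4.55 ± 0.241% with control siRNA. In WT-labelled cells it supplied 35.2 ± 0.536% with SET siRNA and 17.3 ± 1.08% with control siRNA.

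**Figure D1:**
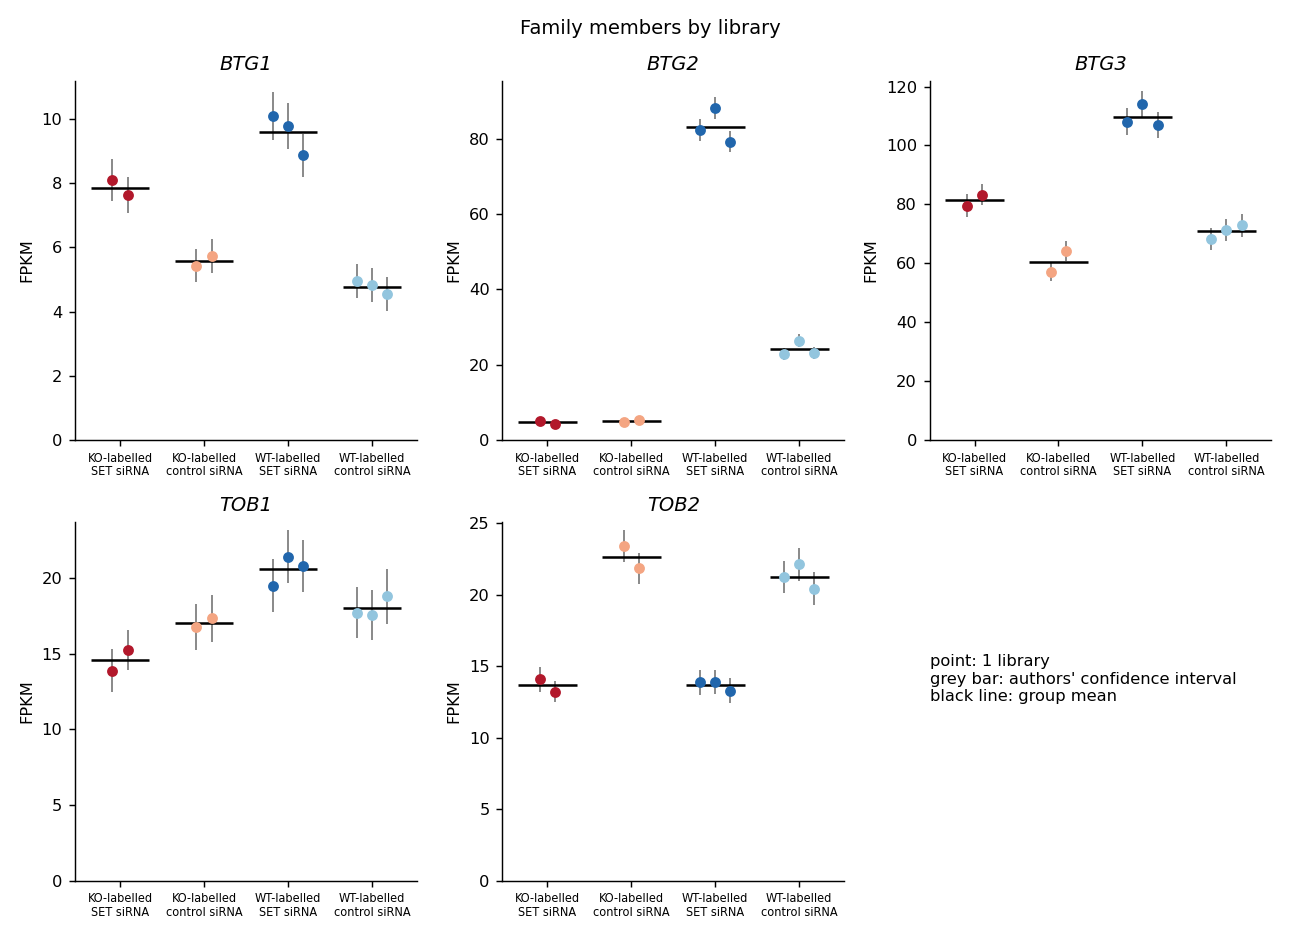
FPKM (linear axis from 0) of each member in each of the 10 libraries, with the authors' confidence interval as a grey bar and the group mean as a black line. BTG2 sits at 4.29 to 5.40 in all KO-labelled libraries and at 79.3 to 88.2 in WT-labelled cells with SET siRNA, while TOB2 separates by siRNA and overlaps between the lines.

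**Figure D2:**
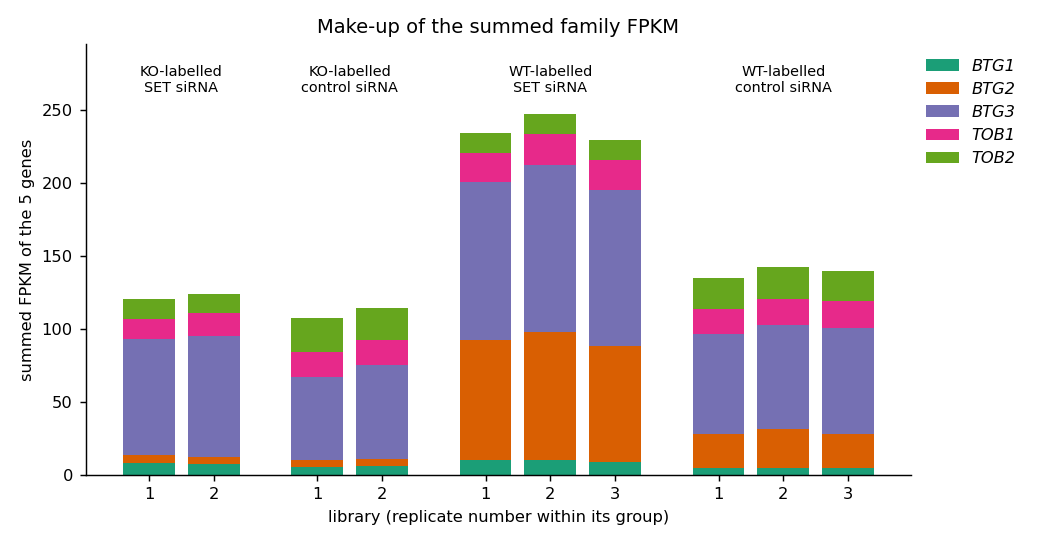
Summed FPKM of the 5 genes (vertical axis) for each library, stacked by gene, with replicate numbers within groups on the horizontal axis. BTG3 is the largest part in every library, and the BTG2 part is 34.6 to 35.7% in WT-labelled cells with SET siRNA and at most 4.72% in KO-labelled libraries.

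With SET siRNA in WT-labelled cells, all 3 BTG genes and TOB1 rose and TOB2 fell. The comparison asked how the family responds to loss of SET where p53 is labelled intact. In limma, 5 of 5 members passed an adjusted p below 0.05, 4 higher and 1 lower, where 54.8% of 14813 tested genes were called, 30.8% higher and 24% lower. All 5 also had groups that did not overlap, as did 64.3% of tested genes. BTG2 was the 1 member past a log2 change of 1, as were 2.92% of tested genes. The count is thus not far from what most genes did, and the sizes say more. BTG2 changed by 1.75 on the log2(FPKM + 1) scale, the scale of all log2 values here, and 62 tested genes rose more. BTG1 changed by 0.87, with 349 genes above it, and the median size over all tested genes was 0.23.

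The SET siRNA response of the KO-labelled line showed what the family did where p53 is labelled absent. BTG1 and BTG3 rose, TOB1 and TOB2 fell, and BTG2 was not called. That is 4 of 5 members called, 2 higher and 2 lower, against 37.6% of tested genes, 19.8% higher and 17.9% lower. The share of tested genes called was smaller without SET siRNA library 1 or 2 of this line, at 3463 and 3696 genes against 5571. The 4 called members had groups that did not overlap, as did 67.5% of tested genes, and 0 of 5 were past a log2 change of 1, against 2.22%.

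The interaction, which is the SET siRNA change in WT-labelled cells less that in KO-labelled cells, was positive and called for BTG2, BTG1 and TOB1. That is 3 of 5 members, where 19.1% of tested genes were called, 10.5% positive and 8.6% negative. BTG2 alone of the 5 was past 1, as were 1.45% of tested genes. Over all genes the count of 2831 moved with single libraries. Leaving out WT SET siRNA library 1 gave 1820 calls, and leaving out its library 2 gave 1760. For the KO control libraries these counts were 4589 (library 1 out) and 1724 (library 2 out), and for the KO SET siRNA libraries 1143 and 1466.

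Between the lines, KO-labelled cells had less BTG2 and BTG3 and slightly more BTG1 than WT-labelled cells under control siRNA. That is 3 of 5 members called, 1 higher and 2 lower, against 47.9% of tested genes, 25.7% higher and 22.2% lower. In 4 of 5 the groups did not overlap, against 63.1% of tested genes, and BTG2 alone was past a log2 difference of 1, against 3.06%. Without KO control library 1 the count of members was 1. Under SET siRNA 4 of 5 members were lower in KO-labelled cells and 0 higher, against 48.4% of tested genes called, 24.8% lower and 23.6% higher. The same 4 had groups that did not overlap, against 70.2% of tested genes, and BTG2 alone was past a log2 difference of 1, against 4.1%. TOB2 had a log2 difference of 0.09 under control siRNA and 0.00 under SET siRNA, neither called. These 2 comparisons share libraries with the siRNA comparisons, so their values stand side by side and are not independent.

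**Figure D3:**
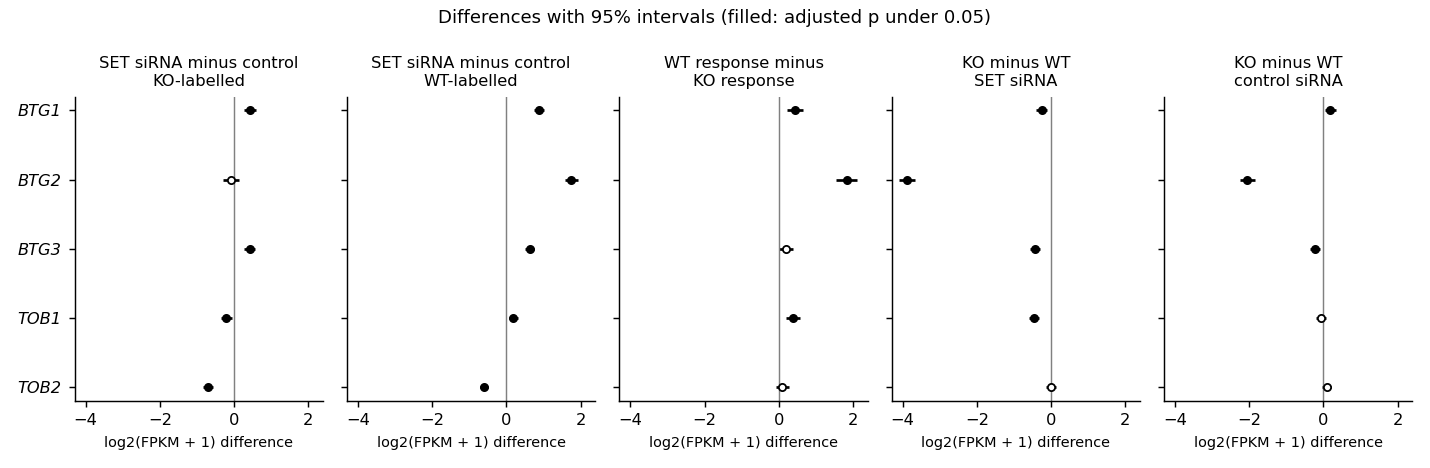
Log2(FPKM + 1) differences (horizontal axis) of the 5 members in the 5 comparisons, with 95% intervals from limma and filled points for adjusted p below 0.05. BTG2 has the largest differences in 4 panels, from -3.88 to 1.83, and sits at -0.08 for SET siRNA in KO-labelled cells.

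BTG2, a long-known p53 target, was at 82.4, 88.2 and 79.3 FPKM in WT-labelled cells with SET siRNA, against 22.9, 26.4 and 23.0 with control siRNA. In KO-labelled cells it was at 5.14 and 4.29 FPKM with SET siRNA, against 4.71 and 5.40 with control siRNA. The 3 WT-labelled SET siRNA libraries stood above all others, the WT-labelled control libraries came next, and the 4 KO-labelled libraries overlapped at the bottom. The rise in WT-labelled cells was 3.46-fold in mean FPKM, with a log2 change of 1.75 (95% interval 1.57 to 1.93, adjusted p = 6.26e-07). In KO-labelled cells the log2 change was -0.08 (95% interval -0.31 to 0.14, adjusted p = 0.533), so a rise of the WT-labelled size lies outside the interval. Its sign turned without KO SET siRNA library 2 (0.02, adjusted p = 0.90). The interaction was 1.83 (95% interval 1.55 to 2.12, adjusted p = 0.000119), exceeded in the positive direction by 44 of 14813 genes. KO-labelled cells had 0.210 of the WT-labelled mean under control siRNA (log2 difference -2.05, adjusted p = 5.88e-07). Under SET siRNA WT-labelled cells had 17.7-fold more (log2 difference -3.88 for KO minus WT, adjusted p = 5.94e-09), and 13 tested genes were further down. BTG2 (chromosome 1, 203274664 to 203278730 in the files' coordinates) overlaps LOC100652867 (203274617 to 203277372), listed at 0.170 to 7.11 FPKM. Without strand the reads of that overlap cannot be told apart.

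BTG1, a close relative of BTG2, was the scarcest member in WT-labelled cells. Its FPKM was 10.1, 9.80 and 8.87 in WT-labelled cells with SET siRNA, against 4.96, 4.84 and 4.55 with control siRNA. In KO-labelled cells it was 8.10 and 7.64 with SET siRNA, against 5.43 and 5.73 with control siRNA. No 2 of the 4 groups overlapped, and both SET siRNA groups stood above both control groups. The rise was 2.00-fold in WT-labelled cells (log2 change 0.87, 95% interval 0.74 to 1.01, adjusted p = 4.76e-06). It was 1.41-fold in KO-labelled cells (0.43, 95% interval 0.26 to 0.60, adjusted p = 0.00200). The interaction of 0.44 (adjusted p = 0.0145) lost its call without KO SET siRNA library 2 (0.40, adjusted p = 0.0599).

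The line difference of BTG1 changed sign between the siRNAs. KO-labelled cells were higher under control siRNA by 0.19 (adjusted p = 0.0450) and lower under SET siRNA, at -0.25 (adjusted p = 0.0120). The first call was lost when any of 9 of the 10 libraries was left out, with adjusted p of 0.0508 to 0.197 and log2 differences of 0.15 to 0.22, and held without WT SET siRNA library 3 (adjusted p = 0.0341). It was also lost with no filter, a stricter filter, median-of-ratios scaling, a fit of the compared libraries alone and a replicate block. The second was lost without KO SET siRNA library 2 (-0.22, adjusted p = 0.0949).

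BTG3, the most abundant member, was at 108, 114 and 107 FPKM in WT-labelled cells with SET siRNA, against 68.3, 71.3 and 72.8 with control siRNA. In KO-labelled cells it was at 79.5 and 83.3 FPKM with SET siRNA, against 57.1 and 64.0 with control siRNA. The groups did not overlap, and in each line every SET siRNA library stood above every control library. The rise was 1.55-fold in WT-labelled cells (log2 change 0.62, 95% interval 0.51 to 0.74, adjusted p = 1.38e-05) and 1.34-fold in KO-labelled cells (0.42, 95% interval 0.28 to 0.57, adjusted p = 0.000991). The interaction of 0.20 was not called (95% interval 0.02 to 0.39, adjusted p = 0.112), but was without KO control library 1 (0.28, adjusted p = 0.0225). That library held the lowest BTG3 value of the series. BTG3 was lower in KO-labelled than in WT-labelled cells under control siRNA (log2 difference -0.22, adjusted p = 0.0115) and under SET siRNA (-0.43, adjusted p = 0.000292). The first of these was lost without KO control library 1 (-0.14, adjusted p = 0.0679).

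TOB1, which links deadenylase to poly(A)-binding protein, went in opposite directions in the 2 lines, by small amounts. It was at 19.5, 21.4 and 20.8 FPKM in WT-labelled cells with SET siRNA, against 17.7, 17.6 and 18.8 with control siRNA. In KO-labelled cells it was at 13.9 and 15.3 FPKM with SET siRNA, against 16.8 and 17.3 with control siRNA. The 4 groups did not overlap, in the order WT-labelled SET siRNA, WT-labelled control, KO-labelled control and KO-labelled SET siRNA from high to low. The log2 change was 0.18 in WT-labelled cells (95% interval 0.06 to 0.30, adjusted p = 0.0174) and -0.21 in KO-labelled cells (95% interval -0.36 to -0.07, adjusted p = 0.0290). The first call was lost without WT control library 1 or 2 (0.17 and 0.16, adjusted p = 0.0544 and 0.0607) or WT SET siRNA library 2 or 3 (0.15 and 0.17, adjusted p = 0.0685 and 0.0512). Median-of-ratios scaling also ended it (0.14, adjusted p = 0.0526). The second ended without KO control library 2 (-0.19, adjusted p = 0.105), without SET siRNA library 1 of that line (-0.15, adjusted p = 0.192) and when only the compared libraries were fitted (adjusted p = 0.124).

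The interaction of TOB1 was 0.40 (95% interval 0.21 to 0.59, adjusted p = 0.0139), and was lost without KO SET siRNA library 1 (0.33, adjusted p = 0.0671). Under SET siRNA TOB1 was lower in KO-labelled cells by -0.47 on the log2 scale (adjusted p = 0.000183). Under control siRNA the difference was -0.08 (95% interval -0.21 to 0.06, adjusted p = 0.317).

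TOB2, the closest relative of TOB1, was the one member that fell in both lines. It was at 13.9, 13.9 and 13.3 FPKM in WT-labelled cells with SET siRNA, against 21.2, 22.1 and 20.4 with control siRNA. In KO-labelled cells it was at 14.1 and 13.2 FPKM with SET siRNA, against 23.4 and 21.8 with control siRNA. Libraries separated by siRNA, and the lines overlapped under either siRNA. It fell to 0.644 of the control mean in WT-labelled cells (log2 change -0.60, 95% interval -0.71 to -0.49, adjusted p = 1.25e-05). In KO-labelled cells the fraction was 0.603 (log2 change -0.69, 95% interval -0.82 to -0.55, adjusted p = 5.13e-05). The interaction was 0.09 (95% interval -0.08 to 0.26, adjusted p = 0.426), which bounds any difference between the responses. The line difference under SET siRNA lay within -0.13 and 0.12, and its sign varied between settings. In bulk RNA, a change in the share of cells with a transcript and a change in its amount per cell cannot be told apart, for this gene or the others.

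The range of group means over the 4 groups was 3.88 on the log2 scale for BTG2 and 0.47 to 0.87 for the others, so genes of like pattern were sought for BTG2 alone. Likeness was the root mean square difference over 10 libraries between values centred on each gene's own mean, among 10484 genes with mean FPKM of at least 5. The nearest were PVRL4, which encodes the adhesion protein nectin-4, at 0.16, INPP5D, the inositol phosphatase SHIP1, at 0.18 and C1orf183 at 0.23. PVRL4 averaged 0.0711 FPKM in KO-labelled cells with SET siRNA and 0.0607 with control siRNA, and 18.3 with SET siRNA and 3.99 with control siRNA in WT-labelled cells. INPP5D had means of 0.0258, 0.0298, 16.6 and 4.65 FPKM in the same order of groups, and C1orf183 of 2.00, 2.33, 31.0 and 11.5. PVRL4 and INPP5D were below FPKM 5 in 3 of the 4 groups, and passed the minimum mean through WT-labelled cells with SET siRNA. Their KO-labelled values lie near 0, where the log2(FPKM + 1) scale compresses differences, while BTG2 averaged 4.72 and 5.05 FPKM there. The likeness of PVRL4 and INPP5D to BTG2 is thus one on that scale and not one of folds in FPKM.

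**Figure D4:**
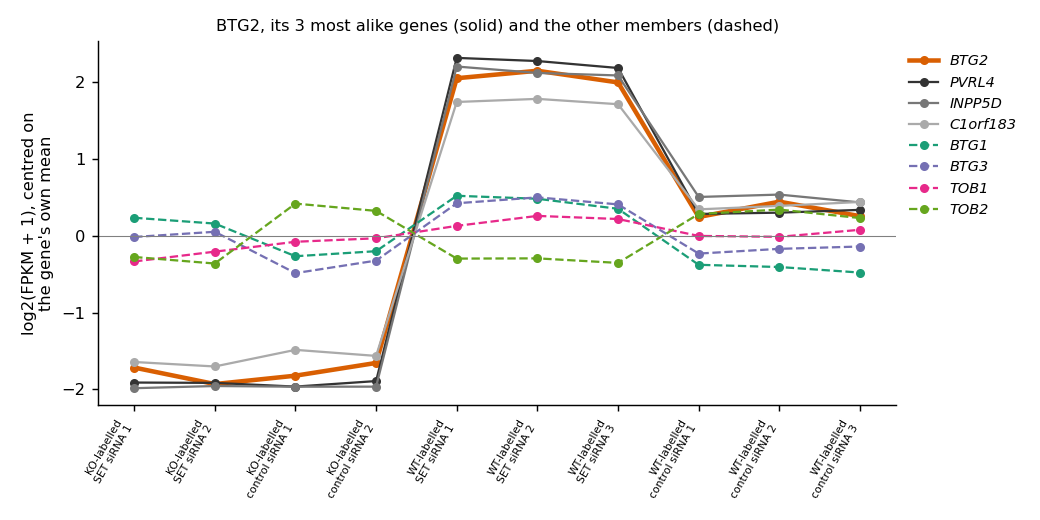
Log2(FPKM + 1) of BTG2, its 3 most alike genes (solid) and the other members (dashed) in each library, each centred on its own mean over the 10 libraries. The 3 genes were picked for likeness to BTG2 in these 10 libraries, so the solid lines share its levels by that choice. The levels are low in the 4 KO-labelled libraries, middle in WT-labelled controls and high in WT-labelled cells with SET siRNA. The dashed lines vary less than the solid ones.

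Since the lines can differ by whole chromosome regions, each member was set beside its tested neighbours, up to 10 on either side. For KO against WT under control siRNA, the 20 neighbours of BTG2 had a median log2 difference of -0.24, with 3 higher and 10 lower in the test, and 1 was as far from 0 as BTG2. Among the lower ones was LOC100652867 (-1.18), which overlaps BTG2 and is not independent of it. The 19 neighbours of BTG3 (9 on 1 side) had a median of 0.28, with 9 higher and 3 lower, while BTG3 itself was at -0.22. Neighbours of TOB1 and TOB2 had medians of 0.03 and 0.05, and those of BTG1 0.15 where BTG1 had 0.19. For SET siRNA, no neighbour of TOB2 changed as much as TOB2 in either line. For BTG3, 6 of 19 neighbours changed as much in either direction in WT-labelled cells, and 8 in KO-labelled cells. The median change of these neighbours in WT-labelled cells was 0.30, against 0.04 over all tested genes, with 11 higher and 5 lower. Of 20 neighbours, 10 and 7 changed as much as TOB1 in WT-labelled and KO-labelled cells. These counts were 1 and 2 for BTG1, and 1 and 14 for BTG2. The part of regional differences in the line differences and in the siRNA changes was not tested.

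Of 17 genes of the deadenylation machinery, 10 rose and 2 fell with SET siRNA in WT-labelled cells, where 30.8% of all tested genes rose and 24% fell, and their median log2 change was 0.17 against 0.04 over all tested genes. PABPC4, a cytoplasmic poly(A)-binding protein, fell to 42.5 FPKM with SET siRNA, against 84.6 with control siRNA (log2 change -0.98, adjusted p = 4.62e-07). CNOT10, a CCR4-NOT subunit, fell by 0.39. PAN3, the regulatory subunit of a second deadenylase, rose by 0.43 and CNOT6, a catalytic subunit, by 0.42. In KO-labelled cells 5 rose and 3 fell, where 19.8% of all tested genes rose and 17.9% fell, with a median of 0.10 against 0.02 over all genes. PABPC4 changed by -0.97 there, at 38.8 FPKM with SET siRNA against 77.2 with control siRNA. The poly(A) ribonuclease PARN rose by 0.34. CNOT10 and CNOT6L changed by -0.40 each, but CNOT10 lost its call without KO SET siRNA library 1 (adjusted p = 0.0523). CNOT6L lost it without control library 2 of that line (adjusted p = 0.105) or its SET siRNA library 1 (0.107), with no filter (0.0520) and when only the compared libraries were fitted (0.0847). None of the 17 had a called interaction in limma, where 19.1% of all tested genes did, and 2 had an unadjusted p below 0.05.

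Between the lines under control siRNA, 8 of the 17 were higher and 4 lower in KO-labelled cells, where 25.7% of all tested genes were higher and 22.2% lower, with a median of 0.14 against 0.02 over all genes. CNOT7, the deadenylase that BTG and TOB proteins bind, was at 46.6 FPKM in KO-labelled and 33.2 in WT-labelled cells (0.48, adjusted p = 0.000506). CNOT1, the scaffold, was lower by -0.37. CNOT6L differed by 0.36 and TNKS1BP1 by -0.34, and both calls were lost without KO control library 2 (adjusted p = 0.136 and 0.0944). That of CNOT6L also ended when only the compared libraries were fitted (0.0505). Under SET siRNA 3 were higher and 3 lower, where 23.6% of all tested genes were higher and 24.8% lower, with a median of 0.03 against 0.00, among them CNOT7 at 0.34, RQCD1 (now CNOT9) at 0.35, CNOT2 at 0.27 and CNOT1 at -0.37.

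The second list held 17 genes, of which 16 are described as partners, regulators or targets of the family or as relatives of such genes, and PPM1D is the phosphatase WIP1 of p53 feedback. CPEB3 stayed below FPKM 1 in every library and was not tested. In WT-labelled cells 5 of 16 rose and 7 fell with SET siRNA, against 30.8% and 24% of all tested genes, with a median of -0.10 against 0.04 over all genes. CPEB4, a paralogue of the TOB partner CPEB3, was at 13.6 FPKM with SET siRNA against 5.35 with control siRNA (1.20, adjusted p = 1.13e-06). PPM1D changed by 0.99 and FOXO1 by 0.70, while E2F1, the S-phase factor bound by BTG3, changed by -0.58. In KO-labelled cells 4 rose and 3 fell, against 19.8% and 17.9% of all tested genes, with a median of 0.01 against 0.02. CPEB4 rose by 0.64, at 8.24 FPKM with SET siRNA against 4.94 with control siRNA. SRC, E2F1 and FOXO1 changed by 0.43, 0.31 and 0.36. SRC lost its call without KO SET siRNA library 1 (adjusted p = 0.0525) and FOXO1 without control library 1 (0.0550) or SET siRNA library 2 (0.0712) of that line. E2F1 lost it without control library 2 (0.0625) or SET siRNA library 1 (0.0657), and when only the compared libraries were fitted (0.0673).

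Interactions were called for 5 of these 16, 2 positive and 3 negative, against 10.5% positive and 8.6% negative of all tested genes. PPM1D had 1.02 (adjusted p = 0.000205) and CPEB4 0.56 (adjusted p = 0.00732). E2F1 had -0.89 (adjusted p = 0.000849). CHEK1 had -0.31, a call that ended when WT control library 1 (adjusted p = 0.0501), WT SET siRNA library 1 (0.0578) or KO SET siRNA library 2 (0.0916) was left out. Between the lines under control siRNA 6 were higher and 2 lower in KO-labelled cells, against 25.7% and 22.2% of all tested genes, with a median of 0.05 against 0.02. SMAD9 was higher by 0.65, FOXO1 by 0.45 and FOXO3 by 0.41, and CCND1, the cyclin that BTG2 and TOB1 are reported to lower, was at 71.6 FPKM in KO-labelled and 106 in WT-labelled cells (-0.56, adjusted p = 2.32e-05). Under SET siRNA 7 were higher and 4 lower, against 23.6% and 24.8% of all tested genes, with a median of 0.07 against 0.00. E2F1 was at 1.13, SMAD9 at 0.67, CPEB4 at -0.66 and PPM1D at -1.36.

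**Figure D5:**
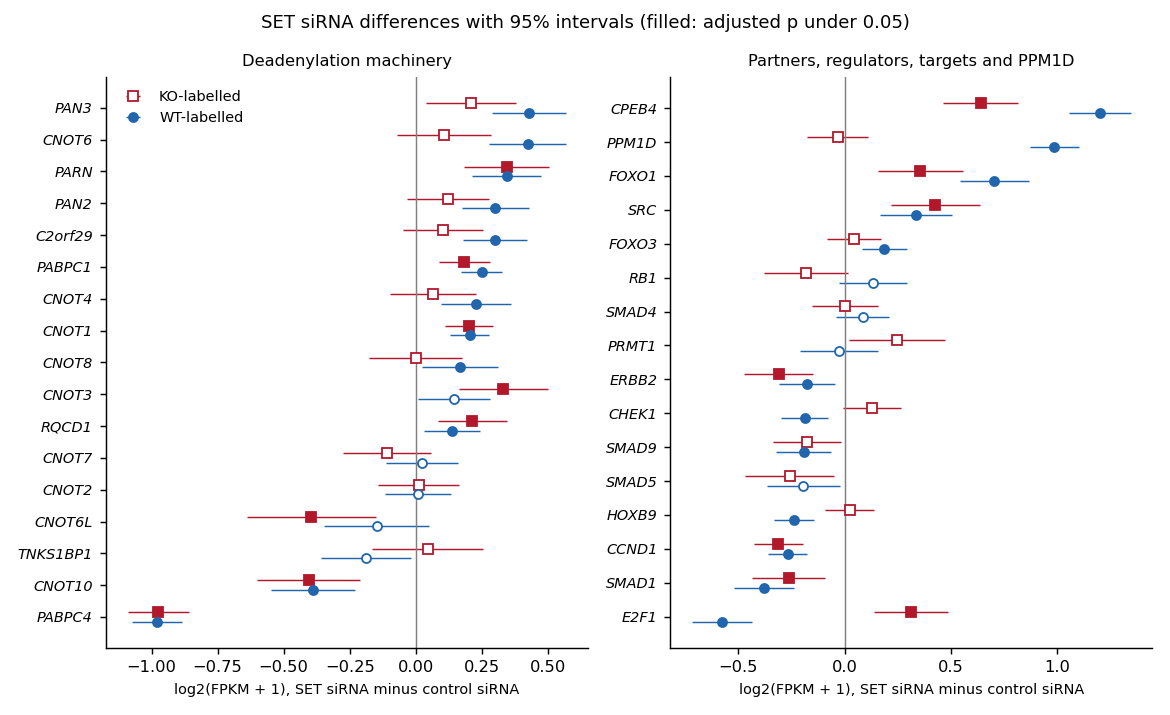
Log2(FPKM + 1) differences between SET and control siRNA (horizontal axis) in KO-labelled (squares) and WT-labelled cells (circles) for 17 deadenylation genes and the 16 tested genes of the second list, with 95% intervals and filled symbols for adjusted p below 0.05. PABPC4 sits at -0.97 in KO-labelled and -0.98 in WT-labelled cells, and E2F1 lies at 0.31 in KO-labelled and -0.58 in WT-labelled cells.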

How the data were processed

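An Illumina TruSeq kit turned total RNA of U2OS-derived cells into 10 libraries, per the labels' protocols. The submitters' processing notes name Cufflinks 2.0.2, TopHat2 2.0.4 and bcl2fastq 1.8.4. Each deposited table gives the authors' FPKM for every gene entry with confidence bounds and a status, per the file headers. The sources used here give no genome build, annotation or strand setting. File starts count from 0, since 1035 of 1067 microRNA hairpins then matched their RefSeq length, and positions are printed from 1.

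Tested genes had 1 FPKM or more in 2 or more libraries. limma 3.58.1 in R 4.3.3 fitted log2(FPKM + 1) of all 10 libraries with 4 groups (eBayes with trend), and Benjamini-Hochberg adjustment ran over all 14813 genes. Adjusted p-values are from that fit unless an alternative setting or a left-out library is named. There the limma fit and adjustment were repeated under that setting. Folds are ratios of mean FPKM. The log2(FPKM + 1) scale understates changes of low genes. Implied fragments were computed from the authors' bounds, taken as 2 SD, and of low values 66.1 to 68.1% were whole within 0.05. They were therefore used for depth and for the chi-square between libraries of a group, and no count test between groups was run. The procedure was tested on simulated data. By that chi-square no 2 libraries of a group agreed within counting noise, as far as the implied fragments, which are approximate, can show. Promoter windows came from RefSeq, and Python 3.11.15 did the remaining work.

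Members and lists were chosen with earlier results of these data known. Named genes were the 5 members, the checks SET and CDKN1A (a further check is not reported here), up to 4 called genes of each list per comparison with the largest change, and the 3 genes most like a member whose group means spanned at least 1. PPM1D sits on the partner list although it is tied to p53 and not to the family. Alternatives were a pseudocount of 0.1, no filter or mean FPKM of at least 5, quantile and median-of-ratios scaling, fitting the compared libraries alone, a replicate block, no trend, and leaving out each library.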

Additional observations from a re-analysis of the deposited data

Results flagged for a closer look

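For 3 members the SET siRNA responses of the lines differed, each by the interaction term of limma itself. BTG2 had a log2 interaction of 1.83 (adjusted p = 0.000119), with all 3 WT-labelled SET siRNA libraries above their controls and the KO-labelled groups overlapping. BTG1 had 0.44 (adjusted p = 0.0145), with higher values under SET siRNA in every library of both lines. TOB1 had 0.40 (adjusted p = 0.0139), with SET siRNA libraries above controls in WT-labelled cells and below them in KO-labelled cells. The interactions of BTG1 and TOB1 each lost their call when 1 KO-labelled SET siRNA library was left out, library 2 for BTG1 (adjusted p = 0.0599) and library 1 for TOB1 (adjusted p = 0.0671). Groups of 2 and 3 libraries are too small for a check of single outlying libraries.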

How the results depend on the processing

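Of 25 member results, 15 kept their direction and their side of the threshold under every alternative, among them every BTG2 result except that in KO-labelled cells. In KO-labelled cells the count of called genes was 5571, and 3202 with the compared libraries fitted alone. It was 3463 to 5832 with 1 library left out, and the interaction count of 2831 was 1143 to 4589. Members called between the lines under control siRNA numbered 1 to 3. With 1 library left out, TOB1 changed by 0.15 to 0.22 in WT-labelled and -0.28 to -0.15 in KO-labelled cells, with an interaction of 0.33 to 0.46. BTG1 had interactions of 0.40 to 0.49 and line differences of 0.15 to 0.22 under control and -0.30 to -0.22 under SET siRNA. BTG3 had interactions of 0.12 to 0.28 and line differences under control siRNA of -0.31 to -0.14. Uncalled values that changed sign were BTG2 in KO-labelled cells (-0.192 to 0.0228) and TOB2 between the lines under SET siRNA (-0.0465 to 0.0387). TOB2 did so also with median-of-ratios (0.0015) and quantile scaling (0.0275). Median-of-ratios scaling gave TOB1 0.14 in WT-labelled cells, and a fit on only the libraries compared gave it -0.21 in KO-labelled cells, neither called. The BTG1 line difference under control siRNA was not called with no filter (0.19), the stricter filter (0.19), only the libraries compared (0.19) or median-of-ratios scaling (0.18). It was not called with a replicate block either (0.15, adjusted p = 0.0752). The block changed no other member call and gave 8472, 6027, 3400, 7189 and 7233 called genes where the fit without it gave 8117, 5571, 2831, 7101 and 7173. Whether replicate numbers mark pairs was not settled. Deviations of same-numbered libraries correlated at -0.09 to 0.25, above 0.1 in 3 of 13 cases. Those of differently numbered libraries correlated at -0.25 to 0.15, above 0.1 in 2 of 24. Between the control groups of the lines, libraries numbered 1 correlated at 0.23 and those numbered 2 at 0.25. In a group of 2 the deviations mirror each other, so these values are not independent. Not every library correlated best with its own number. The cause of the changes between settings was not tested. A lone library left in a group was assumed to vary like the other groups. The interaction uses all libraries, so it has no fit on only the libraries compared. Of 36 results for named list genes 28 stayed called under every alternative and 0 changed sign. Depth is known only as implied by the authors' bounds, which lay up to 14.2% from a member's FPKM.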

Other observations

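BTG4, the remaining gene of the family, is known mainly from oocytes and was not among the 5 genes followed. It was looked at after its values were seen and is given as values only. It was listed at 0.229 and 0.0583 FPKM in KO-labelled cells with SET siRNA and at 0.144 and 0 with control siRNA. In WT-labelled cells it was at 1.20, 0.896 and 0.523 FPKM with SET siRNA and at 1.29, 1.13 and 0.888 with control siRNA. The 4 KO-labelled libraries were thus below all 6 WT-labelled ones, at levels where the authors' bounds lie 50% or more from each value above 0.

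TOB2P1, annotated by its name as a TOB2 pseudogene, stayed at 1.36 to 2.13 FPKM in all libraries. Whether TOB2 shares reads with it was not tested. LOC100652867, which overlaps BTG2, was at 0.622 and 0.255 FPKM in KO-labelled cells with SET siRNA and 0.606 and 0.170 with control siRNA. It was at 5.45, 6.08 and 7.11 FPKM in WT-labelled cells with SET siRNA and 2.08, 2.46 and 1.79 with control siRNA, the same order of groups as BTG2 between the lines and, in WT-labelled cells, between the siRNAs.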
